A study of Mus musculus with 6 samples.

Results

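MHC class I antigen presentation was followed through a named set of 10 genes: the heavy chains H2-K1, H2-D1, H2-Q10 and H2-T23, the light chain B2m, the peptide transporter subunits Tap1 and Tap2, the loading factor Tapbp, the trimming enzyme Erap1 and the transcriptional activator Nlrc5. They are 10 of the 54446 genes in the deposited count table, and all 10 were among the 15368 genes abundant enough to be tested. Poly-A RNA sequencing had been done on mouse liver cells at weeks 0, 2 and 7 of a treatment given in the series title as MET/CAT with SB transposase. SB transposase integrates DNA flanked by the ends it recognises. The labels leave CAT unexpanded and do not name a vector, a promoter or a control agent.

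The 3 groups were week 0, week 2 and week 7 of treatment, with 2 libraries in each and 6 in all. No untreated mice of weeks 2 or 7 were among the samples, so time and treatment cannot be told apart. The strain label of week 0 replicate 1 is a mix of FVB/N and C57BL/6. Over the remaining labels the number after C57BL/ runs 8, 10, 12, 14 and 16, so their background is uncertain. FVB/N mice carry another haplotype of the H2 complex than C57BL/6 mice, and how far a haplotype difference between libraries moved the counts of the class I genes was not tested. Age is not given, and nothing states that the 2 libraries of a week came from separate animals. The p-values therefore measure only the spread between these samples, which may be technical.

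Library totals ran from 49353453 to 58434358 deposited counts, and a read pair appeared to be worth about 4 of them. The week 2 libraries held 13236 and 12804 counts of Xist and 0 of the Y-linked Ddx3y. The other 4 libraries held at most 15 counts of Xist and between 1897 and 2303 of Ddx3y. Week 2 thus differed from weeks 0 and 7 in time and in sex together, and these cannot be told apart in any comparison with week 2. Only week 7 against week 0 compared libraries of the same typed sex. These were bulk samples, in which fewer cells of a type and less RNA per cell cannot be told apart.

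MHC class I molecules show fragments of a cell's own proteins to CD8 T cells and to NK cells. Proteasomes cut proteins into peptides, and the transporter made of Tap1 and Tap2 pumps these into the endoplasmic reticulum, where Erap1 trims them. Tapbp, known as tapasin, holds an empty heavy chain, bound to B2m, beside the transporter until a peptide fits. Hepatocytes carry little class I at rest, and interferons and Nlrc5 raise its transcription. H2-Q10 is a class I protein that the mouse liver secretes.

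Class I promoters are known for a kappaB element, an interferon-response element and a downstream module with a CRE-like box and a Y box, on which Nlrc5 acts with its partners. Promoter sequences from RefSeq (build GRCm38.p6) were matched to 8 of the 10 genes; Tap2 and Nlrc5 had no entry. The windows of the 3 abundant heavy chains and of B2m are shown because they differ in these elements. Each is printed 5′ to 3′ on the gene's strand, with capitals on the letters that matched a searched motif on either strand. The windows are chr17:34000353-34000481 on the minus strand for H2-K1, chr17:35262900-35263028 on the plus strand for H2-D1, chr17:35469890-35470021 on the plus strand for H2-Q10 and chr2:122147537-122147686 on the plus strand for B2m.
H2-K1: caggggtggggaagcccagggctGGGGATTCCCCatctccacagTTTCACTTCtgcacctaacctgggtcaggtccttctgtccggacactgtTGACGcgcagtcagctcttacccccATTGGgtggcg
H2-D1: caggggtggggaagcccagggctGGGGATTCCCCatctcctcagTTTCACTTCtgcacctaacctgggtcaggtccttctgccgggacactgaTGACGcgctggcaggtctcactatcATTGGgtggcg
H2-Q10: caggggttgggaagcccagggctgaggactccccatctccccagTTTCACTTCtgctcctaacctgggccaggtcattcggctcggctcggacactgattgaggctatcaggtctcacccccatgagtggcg
B2m: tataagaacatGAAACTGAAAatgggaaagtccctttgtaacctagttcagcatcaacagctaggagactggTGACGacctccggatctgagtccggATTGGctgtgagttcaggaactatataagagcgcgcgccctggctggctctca

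The H2-K1 and H2-D1 windows were 91.5% identical, and H2-Q10 was 83.0% identical to H2-K1 and 82.1% to H2-D1. The 5 motifs were searched on both strands of the 250 bases before the start site of every RefSeq promoter entry. The kappaB palindrome, which is the first run of capitals in the H2-K1 and H2-D1 windows, was present in 10 of 32851 entries (0.0304%), and 3 of the 9 genes behind them were H2-K1, H2-D1 and H2-Q6. The interferon-type letters GAAGTGAAA were present in 0.402% of entries, and GAAA followed after any 2 bases by GAAA, the first capitals of the B2m window, in 2.98%. TGACG, the core of a CRE, was present in 17.8%, and CCAAT, the letters of a Y box, in 33.8%, so matches to these short motifs are common. No match counted here overlapped a match to another motif in the 8 members.

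H2-K1 and H2-D1 matched the kappaB palindrome, GAAGTGAAA, TGACG and CCAAT, the last at 2 places in H2-D1. Of the 5 motifs, H2-Q10 matched GAAGTGAAA alone. B2m matched the spaced GAAA pair, TGACG and CCAAT, and H2-T23 matched the spaced GAAA pair and CCAAT. Tap1 matched TGACG and CCAAT, Tapbp matched CCAAT at 2 places, and Erap1 matched none of the 5. A match describes letters and not a bound site, and a missing match says only that those letters were not in the window.

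**Figure D1:**
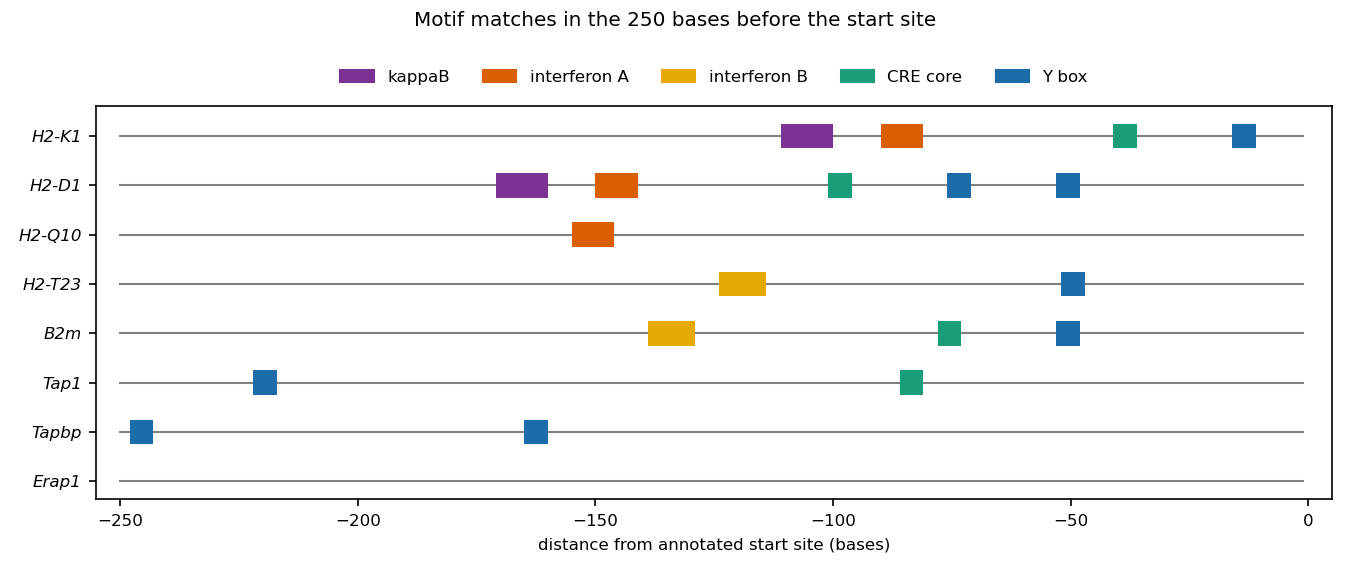
Positions of the motif matches in the 250 bases before the annotated start site of the 8 members with a RefSeq promoter, with distance from the start site in bases on the horizontal axis. Interferon A is GAAGTGAAA, interferon B is the spaced GAAA pair, CRE core is TGACG and Y box is CCAAT; the kappaB match was found in H2-K1 and H2-D1 among these 8.

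At week 7 against week 0, the peptide handling genes Tap1, Tap2, Tapbp and Erap1 and the activator Nlrc5 rose between 1.20- and 2.18-fold. H2-Q10 fell, and the other heavy chains and B2m did not pass the test. At edgeR's adjusted p threshold of 0.05, 5 of the 10 members were higher and 1 was lower, beside 13.8% of all genes tested (7.58% higher and 6.23% lower). The median log2 fold change of the 10 members was 0.18, beside 0.00 over all genes tested. Leaving out week 0 replicate 1 left 2 members called, Tapbp and H2-Q10, and leaving out another library of weeks 0 or 7 left 4. These 2 kept their call under all 15 alternatives tried.

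At week 2 against week 0, the heavy chains H2-K1, H2-D1 and H2-Q10 rose together with Tap2, Tapbp and Nlrc5, between 1.21- and 1.99-fold. This made 6 of the 10 members higher and 0 lower by edgeR, beside 18.6% of all genes tested (9.81% higher and 8.81% lower). DESeq2 and limma voom also called 6 higher and 0 lower, and at an unadjusted p under 0.05 the edgeR counts were 7 and 0. Leaving out week 0 replicate 1 or either week 2 library left 4. The all-gene split was 1508 higher and 1354 lower with TMM scaling and 2007 higher and 913 lower with total counts only, which moved the median of all genes from 0.01 to 0.10 on the log2 scale. The median of the 10 members was 0.29 with TMM scaling.

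At week 7 against week 2, Tap1 and Erap1 rose and H2-D1, H2-Q10 and B2m fell. This made 2 members higher and 3 lower by edgeR, beside 19.8% of all genes tested (10.1% higher and 9.73% lower). The member median was -0.12. The count was 3 without week 2 replicate 1. The comparisons share libraries in pairs, so their values are given side by side and are not independent.

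**Figure D2:**
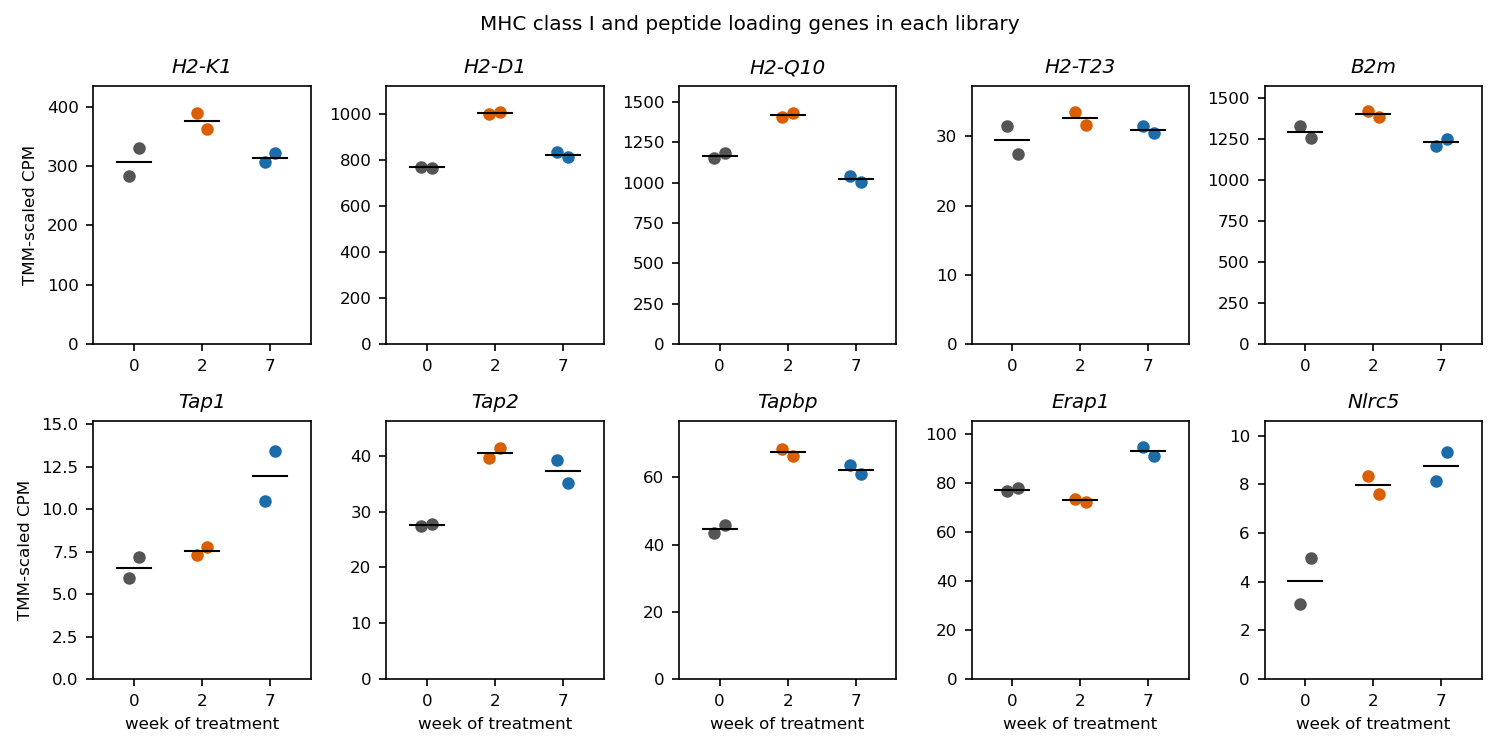
TMM-scaled CPM (vertical axes, each starting at 0) of the 10 genes in each library (points) by week of treatment, with the mean of the 2 libraries as a line. H2-D1 and H2-Q10 were highest in both week 2 libraries, Tap1 and Erap1 in both week 7 libraries, and Tap2, Tapbp and Nlrc5 were lowest in both week 0 libraries.

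**Figure D3:**
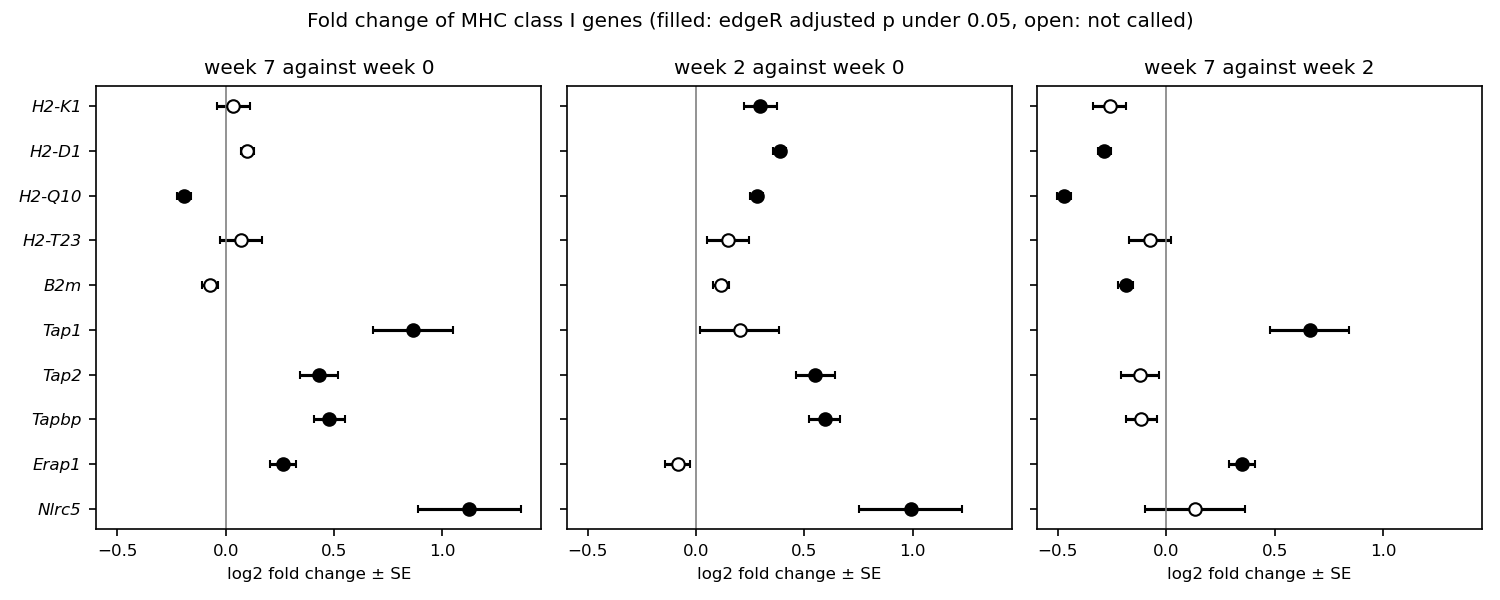
Log2 fold change of each gene with its standard error (horizontal bars) in the 3 comparisons; filled points passed edgeR's adjusted p threshold. Filled points lie above 0 for 5 genes and below 0 for H2-Q10 at week 7 against week 0, and above 0 for 6 genes at week 2 against week 0.

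H2-K1 (ENSMUSG00000061232) and H2-D1 (ENSMUSG00000073411) encode the classical heavy chains that present peptides to CD8 T cells. Levels throughout are in CPM, the usual counts scaled to a common library size with edgeR's TMM factors, unless given per kilobase. H2-D1 measured 768 and 765 CPM in the week 0 libraries, 997 and 1006 in week 2, then 832 and 810 in week 7. The 3 weeks did not overlap, and the week 2 libraries stood highest. Groups of 2 libraries were often separate: 31.4% of all genes tested had week 2 wholly above week 0 and 28.8% wholly below. At week 7 against week 0 the shares were 28.2% and 27.8%, and at week 7 against week 2 they were 30.3% and 30.8%. Statements on overlap are therefore descriptions here and below. The mean rose from 767 ± 2.21 (SD, n = 2) to 1002 ± 6.10 at week 2, which was 1.31-fold (log2 fold change 0.39, SE 0.0301, edgeR adjusted p = 3.2e-05). At week 7 it stood at 821 ± 15.4, and the 1.07-fold difference from week 0 did not pass the test (log2 fold change 0.10, SE 0.0300, edgeR adjusted p = 0.0620), although it did with total counts only (adjusted p = 0.0313). From week 2 to week 7 H2-D1 fell by 0.29 on the log2 scale (edgeR adjusted p = 0.000213).

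H2-K1 measured 282.8 and 329.5 CPM at week 0, 389.7 and 362.2 in week 2, then 306.1 and 321.4 in week 7. The week 2 libraries lay above all others, while the week 7 libraries fell between those of week 0. The week 2 mean was 1.23-fold that of week 0 (log2 fold change 0.30, SE 0.0768, edgeR adjusted p = 0.0405). That call was lost under 7 of the 15 alternatives, with adjusted p-values up to 0.180, the value without week 2 replicate 1. It was lost without each library in turn except week 0 replicate 2. At week 7 the log2 difference from week 0 was 0.04 (SE 0.0767, edgeR adjusted p = 0.838), and it was -0.07 without week 0 replicate 1. Against week 2 it was -0.26 (edgeR adjusted p = 0.0587), and DESeq2 called it (adjusted p = 0.0177), as did limma voom (adjusted p = 0.0419).

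H2-Q10 (ENSMUSG00000067235) measured 1153 and 1183 CPM at week 0, 1405 and 1432 in week 2, then 1040 and 1005 in week 7. The weeks did not overlap, with week 2 highest and week 7 lowest. H2-Q10 rose 1.21-fold at week 2 (log2 fold change 0.28, edgeR adjusted p = 0.000306). At week 7 it was 1.14-fold lower than at week 0 (log2 fold change -0.19, SE 0.0311, edgeR adjusted p = 0.00427). The log2 difference ran from -0.22 to -0.16 over the 15 alternatives. Of the 10 members, H2-Q10 was the single one called lower at week 7 against week 0. From week 2 to week 7 it fell by 0.47 on the log2 scale (edgeR adjusted p = 1.1e-05), a 1.39-fold difference.

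H2-T23 (ENSMUSG00000067212) encodes Qa-1, which shows leader peptides of other class I chains to NK cell receptors. It measured 31.4 and 27.4 CPM at week 0, 33.6 and 31.6 in week 2, then 31.4 and 30.4 in week 7. The log2 difference from week 0 was 0.15 at week 2 (edgeR adjusted p = 0.361) and 0.07 at week 7 (edgeR adjusted p = 0.718, and -0.02 without week 0 replicate 2). No comparison of H2-T23 passed the test.

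B2m (ENSMUSG00000060802), the light chain shared by all these heavy chains, measured 1328 and 1259 CPM at week 0, 1420 and 1384 in week 2, then 1209 and 1253 in week 7. The week 7 libraries were lowest and the week 2 libraries highest. The log2 difference from week 0 was 0.12 at week 2 (edgeR adjusted p = 0.0529) and -0.07 at week 7 (edgeR adjusted p = 0.235). The week 2 value passed the test under 6 alternatives, with the lowest adjusted p of 0.00226 for total counts only. From week 2 to week 7 B2m fell by 0.19 (edgeR adjusted p = 0.00626), and without week 2 replicate 1 this call was lost (adjusted p = 0.0688).

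Per kilobase of coding-transcript exons, B2m was the most abundant member at week 0, at 1504 CPM per kb. H2-Q10 followed at 587, H2-D1 at 365 and H2-K1 at 185 CPM per kb. H2-T23 was at 20.0, Tapbp at 15.4, Erap1 at 13.7, Tap2 at 8.02, Tap1 at 2.22 and Nlrc5 at 0.494 CPM per kb. Each neighbouring pair in this week 0 order was separated in both libraries. The order was the same at weeks 2 and 7 except that Tapbp stood above H2-T23, and their week 7 libraries overlapped (21.1 to 21.9 for Tapbp and 20.7 to 21.3 for H2-T23). The order depended on transcript length: over all annotated exons, H2-D1 at 297 CPM per kb stood above H2-Q10 at 269, and H2-T23 stood below Tapbp and Erap1.

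The summed per-length level of H2-K1 and H2-D1 relative to B2m was 0.347 and 0.385 at week 0, 0.430 and 0.433 in week 2, then 0.413 and 0.398 in week 7. The week 0 libraries had the lowest ratios and the week 2 libraries the highest, with no overlap. H2-Q10 relative to H2-D1 was 1.59 and 1.63 at week 0, 1.49 and 1.5 in week 2, then 1.32 and 1.31 in week 7. The secreted form thus stood lower against H2-D1 in each later week, on this length scale. These ratios are descriptions and were not tested.

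Tap1 (ENSMUSG00000037321) and Tap2 (ENSMUSG00000024339) encode the subunits of the peptide transporter. Tap1 measured 5.97 and 7.15 CPM at week 0, 7.30 and 7.78 in week 2, then 10.4 and 13.4 in week 7. Only the week 7 libraries stood well above the rest. Tap1 rose 1.82-fold at week 7 against week 0 (log2 fold change 0.86, SE 0.184, edgeR adjusted p = 0.0153). It rose by 0.66 on the log2 scale against week 2 (edgeR adjusted p = 0.0338). Without week 0 replicate 1 the first call was lost (adjusted p = 0.0893), as it was without week 7 replicate 2 (0.0984). The second was lost without week 2 replicate 1 (0.157), week 2 replicate 2 (0.110) or week 7 replicate 2 (0.205). At week 2 the log2 difference from week 0 was 0.20 (edgeR adjusted p = 0.522).

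Tap2 measured 27.4 and 27.8 CPM at week 0, 39.6 and 41.4 in week 2, then 39.2 and 35.2 in week 7. Both later weeks lay above week 0 in every library. Tap2 rose 1.47-fold at week 2 (log2 fold change 0.55, edgeR adjusted p = 0.00268), which held under all 15 alternatives. At week 7 it stood 1.35-fold above week 0 (log2 fold change 0.43, SE 0.0885, edgeR adjusted p = 0.0132). Leaving out week 0 replicate 1 (adjusted p = 0.0680), week 0 replicate 2 (0.0534) or week 7 replicate 1 (0.0817) ended the week 7 call. Per length, Tap1 over Tap2 was 0.254 and 0.299 at week 0, 0.215 and 0.219 in week 2, then 0.311 and 0.445 in week 7, so the week 2 libraries were lowest and the week 7 libraries highest.

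Tapbp (ENSMUSG00000024308), tapasin, measured 43.4 and 45.9 CPM at week 0, 68.5 and 66.3 in week 2, then 63.5 and 61.0 in week 7. The weeks did not overlap. It rose 1.51-fold at week 2 (log2 fold change 0.59, edgeR adjusted p = 0.000491). At week 7 it was 1.39-fold above week 0 (log2 fold change 0.48, SE 0.0714, edgeR adjusted p = 0.00277). Both calls held under all 15 alternatives.

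Erap1 (ENSMUSG00000021583), the aminopeptidase that trims peptides to the length the groove takes, measured 76.8 and 78.1 CPM at week 0, 73.7 and 72.4 in week 2, then 94.9 and 91.4 in week 7. It was high in the week 7 libraries alone. Erap1 rose 1.20-fold against week 0 (log2 fold change 0.27, SE 0.0599, edgeR adjusted p = 0.0198) and 1.28-fold against week 2 (log2 fold change 0.35, edgeR adjusted p = 0.00364). Leaving out week 0 replicate 1 (adjusted p = 0.101), week 0 replicate 2 (0.0737) or week 7 replicate 1 (0.0896) ended the first call, while the second held under all 15 alternatives. At week 2 the log2 difference from week 0 was -0.09 (edgeR adjusted p = 0.389), and 0.01 with total counts only.

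Nlrc5 (ENSMUSG00000074151), the activator of class I transcription, was the least abundant member per kilobase, with 153 and 239 deposited counts in the week 0 libraries, 499 and 451 in week 2, then 440 and 477 in week 7. In CPM these were 3.07 and 4.96, then 8.32 and 7.61, then 8.15 and 9.33. The week 0 libraries lay below all others and differed most from each other. Nlrc5 rose 1.99-fold at week 2 (log2 fold change 0.99, SE 0.238, edgeR adjusted p = 0.0201) and stood 2.18-fold above week 0 at week 7 (log2 fold change 1.12, SE 0.239, edgeR adjusted p = 0.0153). Leaving out week 0 replicate 1 (adjusted p = 0.0837), week 2 replicate 1 (0.101) or week 2 replicate 2 (0.0645) ended the week 2 call. Leaving out week 0 replicate 1 (0.0602) or week 7 replicate 2 (0.0815) ended the week 7 call.

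Tap1 starts 226 bases from Psmb9 on the opposite strand in RefSeq, so the promoter windows of these genes overlap. Psmb9 encodes a catalytic subunit of the immunoproteasome, the form that favours peptides for class I. It measured 9.36 and 8.65 CPM at week 0, 16.0 and 17.6 in week 2, then 15.2 and 13.0 in week 7. Psmb9 rose at week 2 (log2 fold change 0.90, edgeR adjusted p = 0.00234), where Tap1 did not pass the test, and at week 7 (0.65, edgeR adjusted p = 0.0171). The difference between Tap1 and Psmb9 was not tested. The week 7 call of Psmb9 was lost without week 0 replicate 1 (adjusted p = 0.0521), week 0 replicate 2 (0.0863) or week 7 replicate 1 (0.102).

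Of the 6 genes of the immunoproteasome and its PA28 cap and assembly factor, Psmb9 rose and Pomp, which helps assemble proteasomes, fell at week 7 against week 0. Pomp averaged 79.7 ± 2.32 CPM at week 0 and 65.9 ± 4.32 at week 7 (n = 2 each, log2 fold change -0.27, edgeR adjusted p = 0.0333). That call was lost under 7 alternatives, the highest adjusted p being 0.153 without week 0 replicate 1. At week 2, Psmb9 and Psmb8 rose and none fell. These were 2 of 6 called in each comparison, beside 13.8% and 18.6% of all genes. Psmb8, named after its values were seen, averaged 35.7 CPM at week 0 and 52.5 at week 2 (log2 fold change 0.55, edgeR adjusted p = 0.00546).

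Each immunoproteasome subunit replaces a constitutive one, and the pairs were compared as ratios of per-length levels. Psmb8 over Psmb5 was 0.381 in both week 0 libraries, 0.549 and 0.583 in week 2, then 0.488 and 0.482 in week 7. Psmb9 over Psmb6 was 0.0370 and 0.0337 at week 0, 0.0580 and 0.0663 in week 2, then 0.0607 and 0.0535 in week 7. Both ratios were higher in every later library than at week 0. Psmb10 over Psmb7 was 0.225 and 0.214 at week 0, 0.206 and 0.256 in week 2, then 0.234 and 0.269 in week 7, and weeks 0 and 2 overlapped. The constitutive subunits Psmb5, Psmb6 and Psmb7 had no call by edgeR, DESeq2 or limma voom at week 2 or week 7 against week 0. Over all genes tested, edgeR called 18.6% and 13.8% in these comparisons. At an unadjusted p under 0.05, edgeR had 1 of them lower at week 7.

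**Figure D4:**
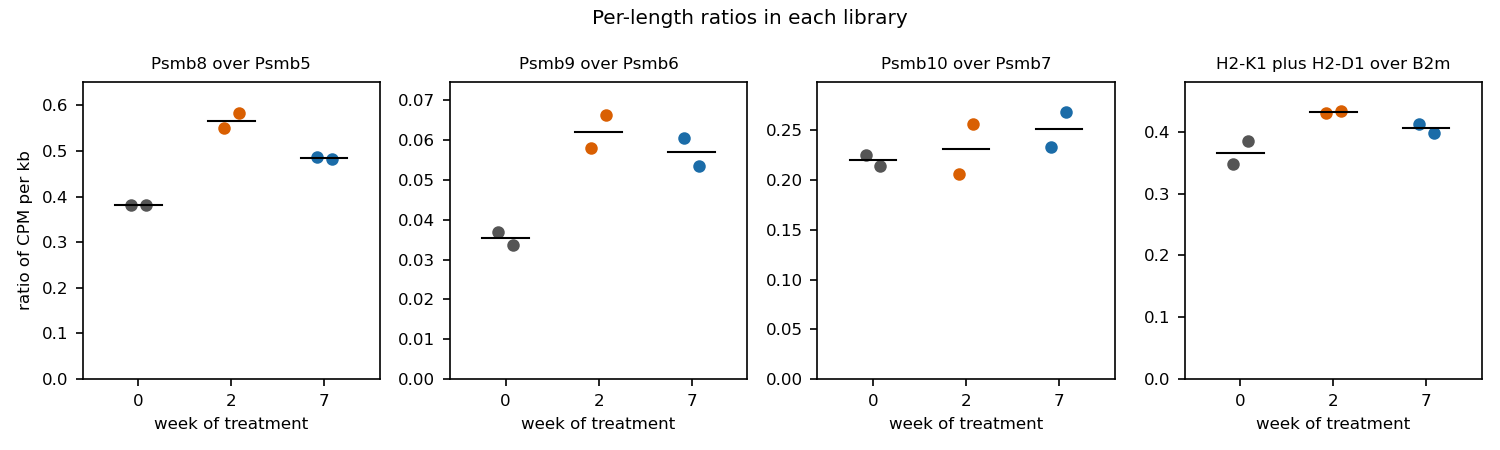
Ratios of CPM per kilobase (vertical axes, starting at 0) in each library (points) by week, with the mean of the 2 libraries as a line. The Psmb8 over Psmb5, Psmb9 over Psmb6 and heavy chain over B2m ratios were lowest in both week 0 libraries, while Psmb10 over Psmb7 overlapped between weeks 0 and 2.

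Calr, Canx and Pdia3, which fold glycoproteins in the endoplasmic reticulum, fell in both comparisons with week 0. Of the 7 loading and folding helpers, 0 rose and 3 fell at week 7 against week 0, and 0 rose and 5 fell at week 2 (3 without week 0 replicate 1 or without week 2 replicate 2), beside 6.23% and 8.81% of all genes lower. The 4 not called at week 7 had log2 differences of 0.11 (Tapbpl), 0.04 (Ganab), 0.01 (Bcap31) and -0.11 (Uggt1). Calr, a chaperone of the loading complex, measured 909.7 and 885.9 CPM at week 0, 670.1 and 668.6 in week 2, then 708.5 and 687.6 in week 7. All later libraries lay below week 0, and the week 7 log2 difference was -0.36 (edgeR adjusted p = 0.000157). Canx, which holds newly made heavy chains, fell from 362 ± 11.6 to 290 ± 1.43 CPM at week 7 (edgeR adjusted p = 0.00142). Pdia3, the disulphide isomerase bound to tapasin, fell from 504 ± 17.9 to 386 ± 39.1 (edgeR adjusted p = 0.0116), a call lost without week 0 replicate 1 (adjusted p = 0.0768). These helpers also fold most other secreted proteins. Of the 6 tested trimming peptidases other than Erap1, 0 were called at week 7, beside 13.8% of all genes. Tpp2 (log2 fold change -0.38, edgeR adjusted p = 0.0532) and Lap3 (-0.23, 0.0643) were the lowest in p. DESeq2 called these 2 lower at week 7 and limma voom called 0. Tpp2 and Lap3 fell at week 2, which made 2 of the 6 lower, beside 8.81% of all genes. There Tpp2 was not called without week 0 replicate 1 or week 2 replicate 2.

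Of the 10 other class I heavy chains tested, of 13 listed, 0 were called at week 7 against week 0, beside 13.8% of all genes. At week 2, 5 rose and 0 fell, beside 9.81% of all genes higher and 8.81% lower. DESeq2 and limma voom also called 0 at week 7, and at an unadjusted p under 0.05 edgeR had 1 higher and 1 lower. Leaving out either week 2 library left 3 of the 5 week 2 calls. Those with the smallest week 7 p-values were H2-Q7 (log2 fold change 0.56, edgeR adjusted p = 0.0794) and H2-T24 (-0.91, 0.10). H2-Q1, named after its values were seen, measured 5.67 and 4.62 CPM at week 0, 43.9 and 40.4 in week 2, then 5.80 and 5.50 in week 7. It was 8.19-fold higher in the week 2 libraries (log2 fold change 3.03, edgeR adjusted p = 1.0e-06). H2-Q4, likewise named afterwards, averaged 28.8 CPM in the week 0 libraries, 43.2 in week 2 and 30.7 in week 7 (week 2 log2 fold change 0.58, edgeR adjusted p = 0.00104). H2-Q6, H2-Q7 and H2-T10 were the other 3 that rose at week 2.

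Class I genes resemble each other, so reads may have been split among them in ways the table does not show. In the GENCODE M21 transcripts, 1.54% of the distinct 150-base stretches of H2-D1 occurred exactly in another gene, H2-Q1. For H2-T23 the share was 0.831%, and for the other 8 members it was 0. For H2-Q1 it was 4.28%. At 50 bases the shares were 28.8% for H2-T23, 13.9% for H2-D1, 7.73% for H2-Q10, 6.87% for H2-K1 and 22.3% for H2-Q1. They were 3.5% for Tapbp, 0.834% for Tap1 and 0.708% for Tap2, and 0 for B2m, Erap1 and Nlrc5. Single heavy chains are therefore less certain than B2m, Erap1 and Nlrc5, and these shares hold for the annotated sequence, not for an FVB/N haplotype.

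Of the 7 class I-like molecules, 0 rose and 2 fell at week 7 against week 0, beside 6.23% of all genes lower, and 1 rose and 1 fell at week 2, beside 9.81% and 8.81%. Without week 0 replicate 1 or without week 7 replicate 2, 0 of the 7 were called at week 7. The week 2 calls were Cd1d1, which was higher, and Azgp1, named after its values were seen, which was lower (log2 fold change -0.19, edgeR adjusted p = 0.00202). Cd1d1, which presents lipids to NKT cells, averaged 204 ± 8.47 CPM in the week 0 libraries, 285 ± 3.16 in week 2 and 172 ± 13.8 in week 7 (week 7 log2 fold change -0.25, edgeR adjusted p = 0.0231). It was not called at week 7 without week 0 replicate 1 (adjusted p = 0.134), without week 7 replicate 2 (0.0995) and with only the 4 libraries compared (0.0531). Hfe, the class I-like regulator of iron uptake, averaged 39.0 ± 1.94 at week 0 and 21.4 ± 1.87 at week 7 (edgeR adjusted p = 0.0466), a call lost under 8 of 15 alternatives, with adjusted p-values up to 0.230.

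Among the transcription factors of class I genes other than Nlrc5, Irf1 fell at week 7 against week 0. Irf1, an activator of class I promoters, measured 32.9 and 33.6 CPM at week 0, 41.1 and 41.0 in week 2, then 26.4 and 25.2 in week 7. Irf1 was thus highest at week 2 and lowest at week 7 (week 7 log2 fold change -0.37, edgeR adjusted p = 0.0187), and its week 7 call was lost without any single library of weeks 0 and 7 (adjusted p from 0.0554 to 0.0868). Of 11 tested genes for interferon receptors and signalling, 0 rose and 1 fell at week 7 by edgeR, a share below the 13.8% of all genes called, and DESeq2 called 1 higher and 1 lower. At week 2, 1 rose and 0 fell, beside 18.6%. The week 2 riser, named after its values were seen, was Ifngr2, a chain of the interferon-gamma receptor (log2 fold change 0.51, edgeR adjusted p = 0.00928), and it was not called without week 0 replicate 1 or without week 2 replicate 2. The gene that fell at week 7, Ifnar1, a chain of the type I receptor, went from 34.9 ± 2.13 to 23.7 ± 2.77 CPM (edgeR adjusted p = 0.0093), a call lost without week 0 replicate 2 (0.0596) or week 7 replicate 1 (0.0596).

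Of the 15 tested interferon-gamma response genes outside class I, 6 rose and 0 fell at week 7 against week 0, and 9 rose and 0 fell at week 2, beside the 13.8% and 18.6% of all genes called. Without week 0 replicate 2 or without week 7 replicate 2, 2 rose at week 7, and limma voom called 4. Tgtp1, an interferon-induced GTPase, measured 0.861 and 1.35 CPM at week 0, 4.80 and 5.76 in week 2, then 8.47 and 9.27 in week 7. It rose 8.03-fold at week 7 (edgeR adjusted p = 0.000152). Cxcl9, a chemokine that draws T cells, measured 7.15 and 8.19 at week 0, 37.3 and 39.3 in week 2, then 19.6 and 24.7 in week 7, and was 2.89-fold above week 0 at week 7 (edgeR adjusted p = 0.000166). Igtp, another GTPase of this group, averaged 58.5 ± 1.64, 56.4 ± 6.06 and 86.3 ± 11.3 CPM (week 7 edgeR adjusted p = 0.00954). Igtp was not called without week 0 replicate 1 (adjusted p = 0.0753), week 0 replicate 2 (0.0524) or week 7 replicate 2 (0.0514). Ifng itself had at most 4 counts in any library and was not among the genes tested.

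**Figure D5:**
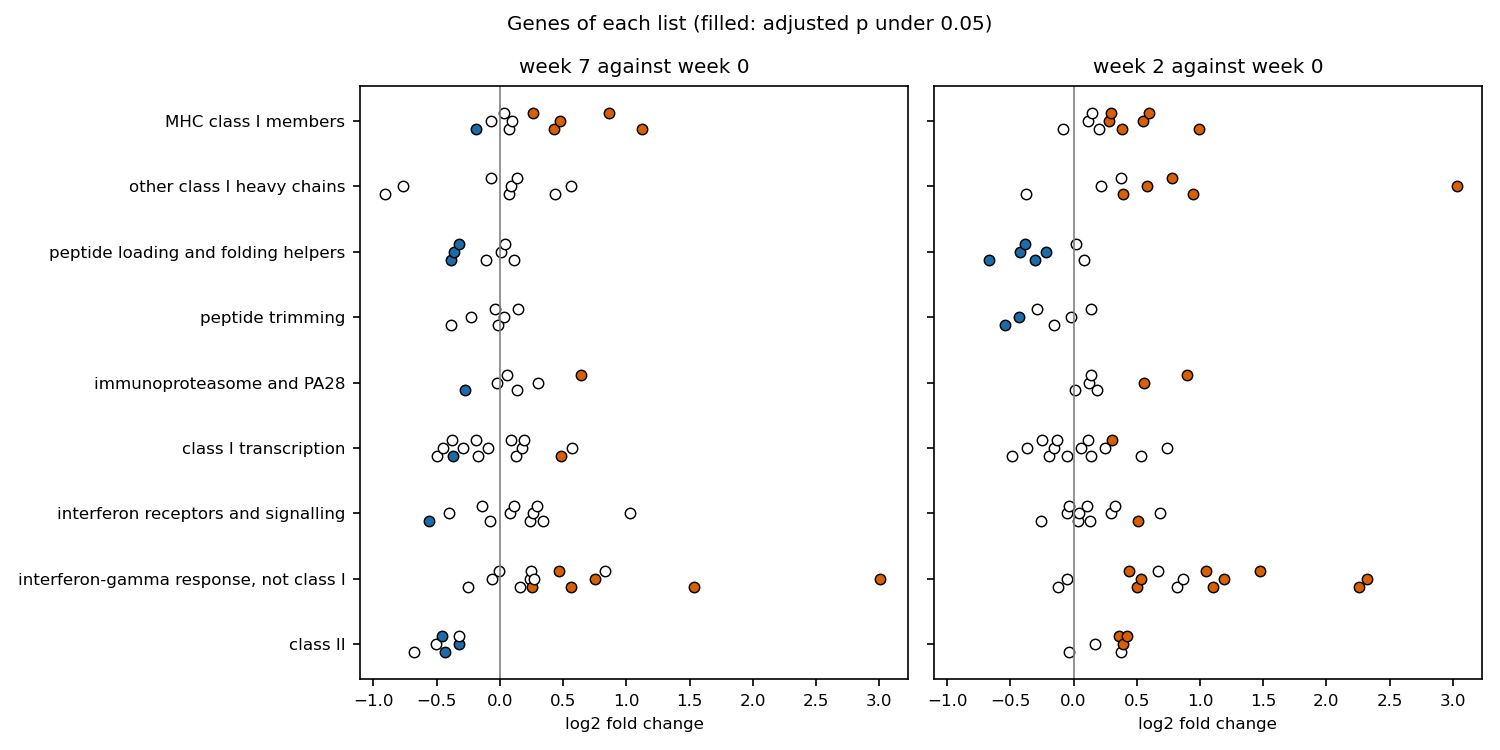
Log2 fold change of each tested gene (points) that reached a 1 CPM mean in some week, by gene list, at week 7 (left) and week 2 (right) against week 0; orange points rose and blue points fell at edgeR's adjusted p threshold. The interferon-gamma response genes lie mostly to the right in both comparisons, and the folding helpers that were called lie to the left.

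Class II genes, which are carried by macrophages, dendritic cells and B cells, rose at week 2 in 3 of 7 cases and fell at week 7 against week 0 in 3 of 7, beside 9.81% of all genes higher at week 2 and 6.23% lower at week 7. Cd74, the invariant chain, averaged 239 ± 5.28 CPM in the week 0 libraries, 320 ± 9.50 in week 2 and 191 ± 6.63 in week 7 (week 7 edgeR adjusted p = 0.00194). H2-Aa fell from 49.9 to 36.3 (edgeR adjusted p = 0.00373) and H2-Ab1 from 61.2 to 45.4 (edgeR adjusted p = 0.00894).

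Marker genes of other liver cell types also differed between the weeks, and not always in the direction of the members. The summed level of 9 Kupffer cell and macrophage markers was 477 and 469 CPM at week 0, 676 and 675 in week 2, then 364 and 359 in week 7. Of these 9, 6 rose at week 2 against week 0, beside 9.81% of all genes higher. At week 7 against week 0, 7 of the 9 fell, beside 6.23% of all genes lower. The summed level of 11 T and NK cell markers was 5.49 and 6.74 CPM at week 0, 13.8 and 13.0 in week 2, then 5.56 and 7.04 in week 7. The 5 B cell markers summed to between 0.892 and 1.08 CPM at week 0, 2.92 and 3.75 in week 2, then 1.07 and 1.92 in week 7. Cd3e, which defines T cells, had between 16 and 80 deposited counts per library. The 7 dendritic cell markers summed to at most 10.8 CPM and the 5 neutrophil markers to at most 1.97 CPM in any library, with the neutrophil marker Ly6g at 0 in all 6. T, B and macrophage markers were thus highest in the week 2 libraries, where the heavy chains were also highest, and macrophage markers were lowest at week 7, where Tap1 and Erap1 were highest. Their part in the members' values was not tested.

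Of the 6 hepatocyte markers, 1 rose and 4 fell at week 2 against week 0, beside 9.81% of all genes higher and 8.81% lower. At week 7 against week 0, 1 rose and 4 fell, beside 7.58% higher and 6.23% lower. The hepatocyte markers summed to 92018 and 91407 CPM at week 0, 115815 and 109632 in week 2, then 78860 and 78635 in week 7. Most of this came from Alb, the single marker that rose at week 2. The median log2 fold change of the 6 was -0.38 at week 2 and -0.22 at week 7. The 7 endothelial markers ran from 265 to 284 CPM at week 0, 321 to 333 at week 2 and 246 to 247 at week 7, and the 6 stellate cell markers from 202 to 212, 258 to 279 and 156 to 159. Of 13 receptor genes that read class I, 6 were tested and 5 were listed at 0 in all 6 libraries. The list was meant for T and NK cells, but it included Pirb, a receptor of B and myeloid cells. At week 7 against week 0, edgeR and limma voom called 0 of the 6, beside 13.8% of all genes called by edgeR. DESeq2 called 1 lower. At an unadjusted p under 0.05 edgeR had 1 lower. It was Pirb, named after its values were seen (log2 fold change -0.65, edgeR unadjusted p = 0.0108).

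The ligands of NKG2D are stress-induced class I relatives. Of the 3 tested, edgeR called 0 at week 7 against week 0, beside 13.8% of all genes. At an unadjusted p under 0.05 edgeR had 2 higher there, and DESeq2 called 1 higher. At week 2 against week 0, 2 of the 3 fell, beside 8.81% of all genes lower. These were Raet1d and Raet1e, named after their values were seen. Raet1d measured 20.5 and 17.9 CPM at week 0, 9.14 and 9.27 in week 2, then 24.2 and 27.0 in week 7 (week 2 log2 fold change -1.06, edgeR adjusted p = 0.000414). Raet1e averaged 16.5, 8.21 and 21.3 CPM in the same order (week 2 edgeR adjusted p = 0.000964).

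Tapbp, Tap1, Tap2, H2-K1, H2-D1, H2-Q10 and H2-T23 lie in the H2 complex on chromosome 17, and B2m, Erap1 and Nlrc5 lie elsewhere. Of these 7 members, 3 rose and 1 fell at week 7 against week 0 (57.1%). Of 94 other tested genes in the interval from Tapbp to H2-T23 that were on no gene list, 6 rose and 3 fell (9.57%), beside 13.8% of all genes tested. At week 2 the shares were 71.4% of the 7 members and 22.3% of the 94 neighbours, beside 18.6%. The 94 left out listed genes whatever their result, such as Psmb9, which rose in both comparisons with week 0. They still held H2 genes such as H2-K2, named after its values were seen. H2-K2 rose at week 2 (log2 fold change 0.97, edgeR adjusted p = 0.000512).

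By the course of centred log2(CPM + 1) over the 6 libraries, the genes closest to Tap1 were Tgfa (root mean square difference 0.0777), Appl2 (0.0787), Arhgap24 (0.0903), Syne1 (0.0927) and Shroom3 (0.0943). Those closest to H2-K1 were Nudt16 (0.0336), Tob1 (0.0492), Zfp593 (0.0503), Ap4b1 (0.0508) and Ptpn1 (0.0512). The search covered 9169 genes whose mean reached 5 CPM. No class I gene was among the 5 closest to either.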

How the data were processed

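TruSeq V2 libraries of poly-A RNA were read as paired ends, per the labels' protocols. Bowtie 0.12.2 and the build mm8 appear in the submitters' processing notes without a stated role. Which program and annotation gave the counts is not given in the sources used here. Unscaled estimated counts for 54446 Ensembl genes were deposited. All were whole, so rounding changed 0 values. Symbols were matched through GENCODE M21 for 54409 identifiers. Some identifiers postdate mm8, so coordinates are given for RefSeq promoters alone. The kit does not mark strand.

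Counts were tested in R 4.3.3 with edgeR 4.0.16: filterByExpr on the weeks, TMM scaling, a robust quasi-likelihood fit over all 6 libraries with 3 residual degrees of freedom, 2-sided tests and Benjamini-Hochberg adjustment over all 15368 genes, with a call at an adjusted p under 0.05. The biological coefficient of variation was 0.209. CPM use the TMM-scaled library sizes. A count of 0 allows up to 12 counts (3 read pairs), 0.200 to 0.249 CPM per library, for counting error only, since reads lacking molecular identifiers may repeat a molecule. The fit was also run on simulated data with less spread than these data and with changes in abundant genes only. That run cannot show how accurate the fit was here. Alternatives used DESeq2 1.42.0, limma 3.58.1, other scalings and filters, counts divided by 4, and each library left out.

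The members and lists were chosen with earlier results of these data known. Named genes were all members, and from each further list up to 3 called genes per direction by adjusted p at week 7 against week 0, or, in a list with no call, the 2 genes lowest in p. Genes named after their values were seen are marked so. A gene that this rule names is not reported here. The 5 genes closest in course to Tap1 and to H2-K1 were also named. Levels between genes were compared per kilobase of the merged exons of GENCODE basic coding transcripts.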

Additional observations from a re-analysis of the deposited data

How the results depend on the processing

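Each result was recomputed under 15 alternatives, 6 of which left out a library. At week 7 against week 0, 2123 genes were called, and between 1298 and 1856 with a library left out; 6 members were called, and between 2 and 6 with a library left out. At week 2 against week 0 the 2862 genes became between 1801 and 2752, and the 6 members between 4 and 6. At week 7 against week 2 the 3040 genes became between 1842 and 2961, and the 5 members between 3 and 6. Under the other 9 alternatives the members called were between 6 and 7, 5 and 7, and 5 and 6 in the same order. Of 450 values of single members, 409 kept their direction and their side of the threshold, 14 newly passed it and 24 no longer did. The rest changed sign. With a library left out, the log2 difference at week 7 against week 0 ran from -0.0707 to 0.151 for H2-K1, -0.0216 to 0.173 for H2-T23, -0.00461 to 0.288 for H2-Q1 and -0.0112 to 0.157 for H2-T10, the last 2 named after their values were seen. It was 0.00591 for Erap1 at week 2 with total counts only. None of these had been called, and the cause was not tested.

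Libraries with the same replicate number showed little common deviation: their deviations correlated at -0.0409, -0.00892 and -0.0678 in the 3 comparisons. Each value rests on 1 difference per week, so it cannot show whether the samples were paired. A replicate block gave 1702, 2436 and 2620 genes and 6, 6 and 5 members. With 2 libraries a week, each week left with 1 library was assumed to vary like the others. Counts divided by 4, nearer to the number of read pairs, ended no call of a member.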
